A study of Mus musculus with 4 samples.

Results

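The probes for gene segments of the T cell receptor were examined in sorted mouse B lineage cells. They are the 52 of 46120 array probes whose identifier names a T cell receptor segment. The rule reads the identifier and no measured value, but it was set with earlier results of these data known. Of these, 21 belong to the alpha chain, 22 to the beta chain, 8 to the gamma chain and 1 to the delta chain. All but 1 (TRGC4, a constant region of the gamma chain) are variable segments. The RNA came from 3 populations on 4 single-colour Illumina arrays, sorted from C57BL/6 mice that all carry the genotype prmd1-gfp, a fluorescent reporter of Blimp1, the regulator that drives B cells to become plasma cells. Naive follicular B cells were B220+ IgD+ (1 array). The spleen plasma cells were CD138+ and either high in Blimp1 (Blimp1-hi, 1 array) or intermediate (Blimp1-int, 2 arrays), from pooled animals. The source field of these 3 arrays names follicular B cells, in conflict with their titles and gates, which the grouping follows. The mice's age is not given, the cells were not treated or cultured, and no array of T cells is part of the data used here.

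A T cell receptor is a pair of chains, alpha with beta or gamma with delta. Each chain's variable domain is encoded by a variable segment that RAG recombinase joins to a joining segment, in beta and delta with a diversity segment between them. The complete join is made in developing T cells, whereas B lineage cells assemble immunoglobulin heavy, kappa and lambda genes with the same enzymes. Transcripts from rearranged receptor segments therefore serve as markers of T cells, and their level in a B cell or plasma cell sort is a readout of lineage restriction and of T cells among the sorted cells. In bulk RNA, fewer cells of a type and less RNA per cell cannot be told apart.

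Of the 52 probes, 51 have a segment of the same name in RefSeq, and TRAV9-3 is named here by its identifier alone. The matched alpha and delta segments lie on chromosome 14 of that table (21 probes), the beta segments on chromosome 6 (22) and the gamma segments on chromosome 13 (8). RefSeq lists 40 of them as variable segments, 10 as variable segment pseudogenes and 1 as a constant region. The pseudogenes are TRBV6, TRBV7, TRBV8, TRBV11, TRBV12-3, TRBV27, TRBV28 and TRBV29 of the beta chain and TRAV4-1 and TRAV4D-2 of the alpha chain. The probes name 20 of 130 RefSeq Trav segments, 22 of 35 Trbv, 7 of 7 Trgv and 1 of 6 Trdv, so the alpha and delta repertoires are covered in small part. In 2 identifiers the name and the written-out segment differ: TRAV12-1 is written out as the duplicate copy 12D-1, and TRDV5 as another delta segment. Near-identical copies, such as the alpha segments with and without a D in their name, may share a probe's signal.

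In these 3 B lineage populations the receptor segment probes lay at the level of array background. A probe was counted as above background on an array where its deposited log2 value exceeded the mean plus 3 standard deviations (SD) of 42 probes for bacterial, plant and spike-in sequences, a cutoff of 8.63 on the naive array, 8.65 on Blimp1-hi, and 8.66 and 8.68 on the Blimp1-int replicates. Of the 52 segments, 1 exceeded it on the naive array, 1 on the Blimp1-hi array, 0 on the first Blimp1-int array and 1 on the second. In all, 50 were below background on every array. Between 14.1% and 15.7% of all probes exceeded the same cutoff. The segments' median level was 8.30 on the naive array, 8.27 on Blimp1-hi, and 8.30 and 8.29 on Blimp1-int, with values from 7.99 to 8.75. The foreign probes had medians of 8.35, 8.33, 8.32 and 8.34 on the same arrays, and 46, 46, 48 and 46 of the 52 segments fell within the range of the foreign probes. The median of all probes was 8.36 on every array, and 33 to 35 of the segments were under it.

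**Figure D1:**
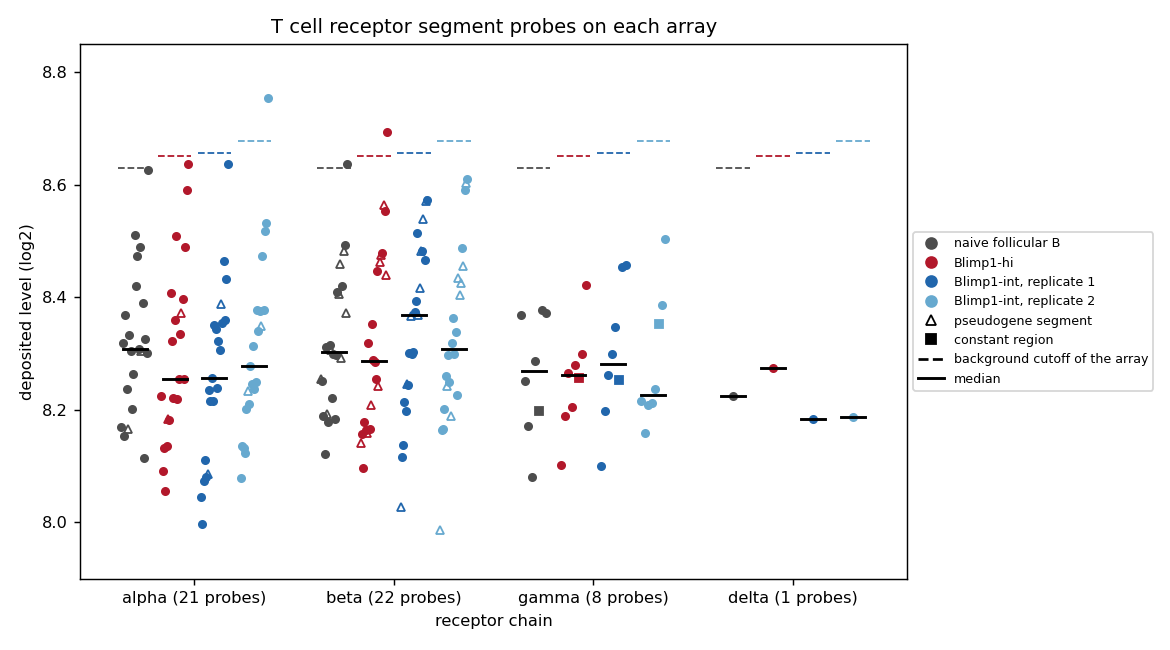
Deposited level (log2) of each of the 52 segment probes on the 4 arrays, by receptor chain, with the chain's median as a bar and each array's background cutoff as a dashed line. Points lie between 7.99 and 8.75, and on 3 of 4 arrays 1 point exceeds the cutoff of its array.

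TRAV6-1 and TRBV12-2 were the 2 segments above background on any array. TRAV6-1, an alpha variable segment, read 8.63 on the naive array, 8.64 on Blimp1-hi, and 8.64 and 8.75 on Blimp1-int. It exceeded the cutoff on the second Blimp1-int array by 0.08 and lay at most 0.02 under it on the other 3, so its arrays sit within a narrow band at the cutoff. TRBV12-2, a beta variable segment, read 8.64 on the naive array, 8.69 on Blimp1-hi, and 8.57 and 8.61 on Blimp1-int. It exceeded the cutoff by 0.01 on the naive array and by 0.04 on that of Blimp1-hi, and lay under it on both Blimp1-int arrays. Neither segment was called different in any comparison in limma's fit over all probes. For TRAV6-1 the Blimp1-int minus naive difference was 0.07 (SE 0.08, adjusted p = 0.727), and for TRBV12-2 the Blimp1-hi minus naive difference was 0.06 (SE 0.10, adjusted p = 0.824). Just outside the cutoff were the alpha segment TRAV6D-3 in Blimp1-hi (8.59), the beta pseudogene TRBV6 on the second Blimp1-int array (8.60) and the beta pseudogene TRBV11 in Blimp1-hi (8.56).

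Each chain lay at background. The 21 alpha probes had medians of 8.31 on the naive array, 8.26 on Blimp1-hi, and 8.26 and 8.28 on Blimp1-int. The 22 beta probes had medians of 8.30, 8.29, 8.37 and 8.31 in the same order, and the 8 gamma probes 8.27, 8.26, 8.28 and 8.23. TRDV5, the delta probe, read 8.22, 8.28, 8.18 and 8.19. TRGC4, a constant region of the gamma chain, read 8.20 on the naive array, 8.26 on Blimp1-hi, and 8.25 and 8.35 on Blimp1-int, all below background. The 10 segments listed as pseudogenes had medians of 8.30, 8.31, 8.38 and 8.38. The 40 segments listed as variable segments had medians of 8.30, 8.27, 8.30 and 8.25, with no pseudogene and 2 of these 40 above background on any array.

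Among the alpha segments, members of 1 family did not share a direction. In the TRAV6 family, TRAV6-1 lay at the cutoff as given above, while TRAV6-2 read 8.32 in naive B cells and 8.09, 7.997 and 8.14 in the plasma cells. TRAV6D-3 read 8.30 in naive B cells and 8.59, 8.43 and 8.53 in the plasma cells, on the opposite side of the naive array from TRAV6-2. In the TRAV12 family, TRAV12D-1 was highest in naive B cells (8.51, against 8.36, 8.35 and 8.24), TRAV12D-3 was lowest there (8.12, against 8.26, 8.46 and 8.38) and TRAV12D-2 stayed between 8.22 and 8.31 on the 4 arrays. In the TRBV13 family of the beta chain, all 3 probes were lowest on the naive array: TRBV13-1 at 8.18 against 8.32, 8.24 and 8.30, TRBV13-2 at 8.42 against 8.48, 8.48 and 8.49, and TRBV13-3 at 8.12 against 8.18, 8.21 and 8.20. Their differences were at most 0.14 and none had an adjusted p under 0.05. Over all 52 segments the range of a probe over the 4 arrays ran from 0.06 (TRBV7) to 0.35 (TRAV12D-3), with a median of 0.15. For comparison, the Blimp1-int replicates differed by up to 0.29 for a single segment, TRBV26, which read 8.51 on the first array and 8.23 on the second.

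The comparison of Blimp1-hi plasma cells with naive B cells asked whether any receptor segment differs with plasma cell differentiation. None of the 52 segments was called higher or lower, while 2.52% of all probes and 0.0% of those below background on every array were. A call needs a 2-fold difference (1 on the log2 scale) together with limma's adjusted p below 0.05. Differences of the probes below background ran from -0.57 to 0.53, so none of them reached 1. As 50 of the 52 segments are such probes, the absence of calls says little about them. limma's fit over all probes gave an unadjusted p under 0.05 to 5 of the 52 (9.62%, against 9.96% of the probes below background on every array), and an adjusted p under 0.05 to 2 of them (3.85%, against 13.1% of all probes and 2.62% of those below background). The differences ran from -0.31 to 0.29 with a median of 0.01, 28 segments being higher and 24 lower in Blimp1-hi. No 95% interval reached a difference of 1 in either direction, the bounds extending from -0.51 to 0.48. The naive and Blimp1-hi groups are single arrays, whose spread is assumed to be that of the Blimp1-int pair, and nothing states that the pair was taken from separate animals. The p-values therefore hold the spread of these 2 samples alone, and it may be technical. For each probe this spread was moderated over all probes, with 91.0 prior degrees of freedom against 1 of its own. A probe whose own replicates differ more than most may thus be given too small an SE.

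TRAV5-1 and TRAV6D-3 were the 2 segments with an adjusted p under 0.05 in that comparison. TRAV5-1, an alpha variable segment, read 8.37 on the naive array, 8.06 on Blimp1-hi, and 8.11 and 8.12 on Blimp1-int. The Blimp1-hi minus naive difference was -0.31 (SE 0.10, adjusted p = 0.0157), with the naive array above all 3 plasma cell arrays. TRAV6D-3 went the other way, with a difference of 0.29 (SE 0.10, adjusted p = 0.0325). Both segments lay below background in both populations, so these differences are not exact and no fold is given. The next lowest were TRGV7, a gamma variable segment (8.37 in naive B cells, 8.10 in Blimp1-hi, difference -0.27, adjusted p = 0.0549), and TRAV14D-2 (8.47 and 8.22, difference -0.25, adjusted p = 0.0767). The next highest were TRBV12-3, a beta pseudogene (8.29 and 8.47, difference 0.18, adjusted p = 0.268), and TRAV9D-2 (8.33 and 8.49, difference 0.16, adjusted p = 0.357).

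**Figure D2:**
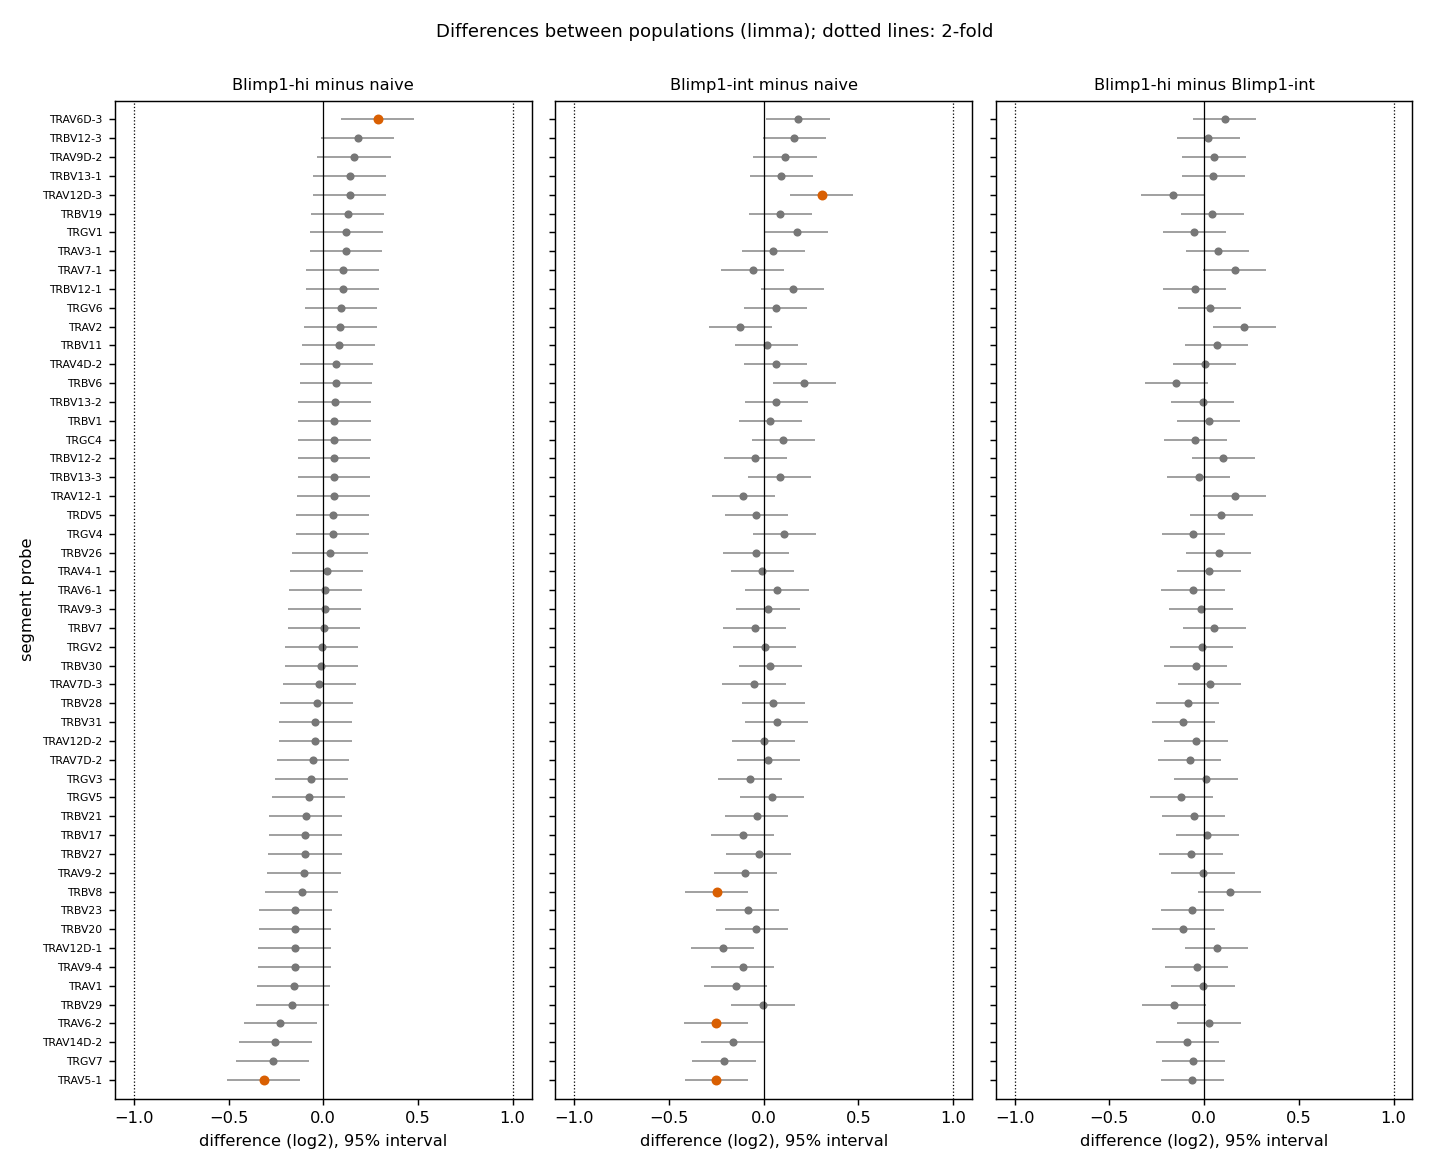
limma's difference (log2) of each segment probe with its 95% interval in the 3 comparisons, in the order of the Blimp1-hi minus naive difference. Filled orange points have an adjusted p under 0.05 (2, 4 and 0 segments), and no interval reaches the dotted lines at a difference of 1.

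In Blimp1-int against naive B cells none of the 52 segments was called either, while 2.44% of all probes and 0.0% of those below background on every array were. An unadjusted p under 0.05 was found for 9 segments (17.3%, against 10.5% of the probes below background on every array) and an adjusted p under 0.05 for 4 (7.69%, against 14.2% of all probes and 2.98% of those below background). Differences ran from -0.25 to 0.31 with a median of 0.00, and the bounds of the 95% intervals from -0.42 to 0.47. TRAV12D-3 had the largest difference, 0.31 (SE 0.08, adjusted p = 0.00449), with both Blimp1-int arrays above the naive one. The others were on the lower side, each with a difference of -0.25 (SE 0.08): TRAV5-1 (adjusted p = 0.0271), TRAV6-2 (adjusted p = 0.0298) and the beta pseudogene TRBV8 (adjusted p = 0.0305). TRBV8 read 8.25 in naive B cells and 8.03 and 7.99 in Blimp1-int. TRBV6, another beta pseudogene, went the other way, from 8.37 to 8.57 and 8.60 (difference 0.22, adjusted p = 0.0759). All these values are below background. This comparison shares its naive array with the one before. Side by side, the Blimp1-hi minus naive differences of TRAV12D-3, TRAV6-2 and TRBV8 were 0.14, -0.23 and -0.11 (adjusted p = 0.458, 0.133 and 0.585), and the Blimp1-int minus naive difference of TRAV6D-3 was 0.18 (adjusted p = 0.176).

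Between the plasma cell populations none of the 52 segments was called or had an adjusted p under 0.05, while 0.297% of all probes were called and 4.1% had an adjusted p under 0.05. Of the probes below background on every array, 0.0% were called and 0.34% had such a p. An unadjusted p under 0.05 was found for 1 segment. This was TRAV2, which read 8.51 on the Blimp1-hi array against 8.34 and 8.25 on those of Blimp1-int (difference 0.21, SE 0.08, limma adjusted p = 0.194). TRAV12-1 and TRAV7-1 followed with differences of 0.16 each. In the opposite direction TRAV12D-3, TRBV29 and TRBV6 had differences of -0.17, -0.16 and -0.15. The median over the segments was -0.01, 24 being higher and 28 lower in Blimp1-hi.

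Relative to the naive array, 17 segments were higher on all 3 plasma cell arrays and 15 lower on all 3. Together these are 61.5% of the segments, against 62.9% of all probes, 57.9% of the probes below background on every array and 52.4% of the foreign probes. The share is near that of all probes and of those below background. In pairs of arrays, the levels of the 52 segments correlated with Pearson's r = 0.608, 0.548 and 0.601 between the naive array and the Blimp1-hi and Blimp1-int arrays, and with r = 0.816, 0.801 and 0.826 between pairs of plasma cell arrays. The 42 foreign probes gave r between 0.515 and 0.611 for all pairs, and the probes below background on every array gave 0.532 to 0.571 with the naive array and 0.665 to 0.712 among plasma cell arrays. These correlations are across probes, which are not independent replicates and share each array's labelled RNA and each probe's base composition.

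**Figure D3:**
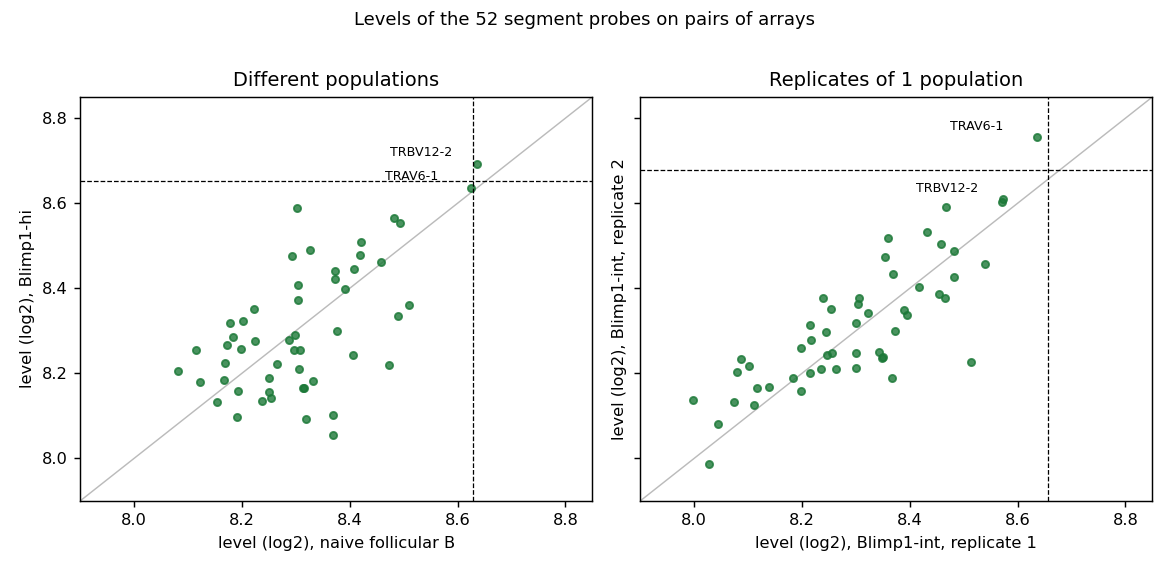
Levels (log2) of the 52 segment probes on the naive and Blimp1-hi arrays (left) and on the Blimp1-int replicates (right), with the background cutoffs as dashed lines and equal levels as a grey line. Points follow the line more closely on the right (r = 0.826) than on the left (r = 0.608), and the labelled TRAV6-1 and TRBV12-2 lie nearest the cutoffs.

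Immunoglobulin variable segment probes, built on the same array for receptor genes of the B lineage, were read in the same cells, which use these segments. In Blimp1-hi 93 of 136 heavy chain variable probes (68.4%) and 101 of 145 kappa variable probes (69.7%) exceeded background, with medians of 9.85 and 11.67. In Blimp1-int 61.8% and 62.5% of the heavy chain probes and 64.8% and 64.1% of the kappa probes did. Of the 8 lambda variable probes 2 (25.0%) exceeded background on every array. In naive B cells the kappa share was 48.3%, with a median of 8.58. The heavy chain share in naive B cells, however, was 4.41% (6 of 136 probes), with a median of 8.34, although these cells carry surface immunoglobulin. IGHD, the constant region of the IgD by which the naive cells were sorted, read 8.51 in naive B cells and 8.46, 8.44 and 8.46 in the plasma cells, below background on all arrays, while IGHM, the constant region of IgM, read 13.38 in naive B cells. On these arrays a variable segment probe at background therefore does not show that its transcript is absent. How the T cell receptor probes respond to T cell RNA was not measured here. By limma, 170 of the 289 immunoglobulin variable probes were called higher for Blimp1-hi against naive B cells and 156 for Blimp1-int, with none lower, beside the 0 of 52 receptor segments. Of all probes 2.52% and 2.44% were called in either direction, and of those below background on every array 0.0% in both comparisons. Between the Blimp1-int replicates, differences of the 289 immunoglobulin variable probes had an SD of 0.467. For probes below background on every array this SD was 0.0923. As limma's spread is mostly shared over probes, the p-values of these and other bright probes may be too small.

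**Figure D4:**
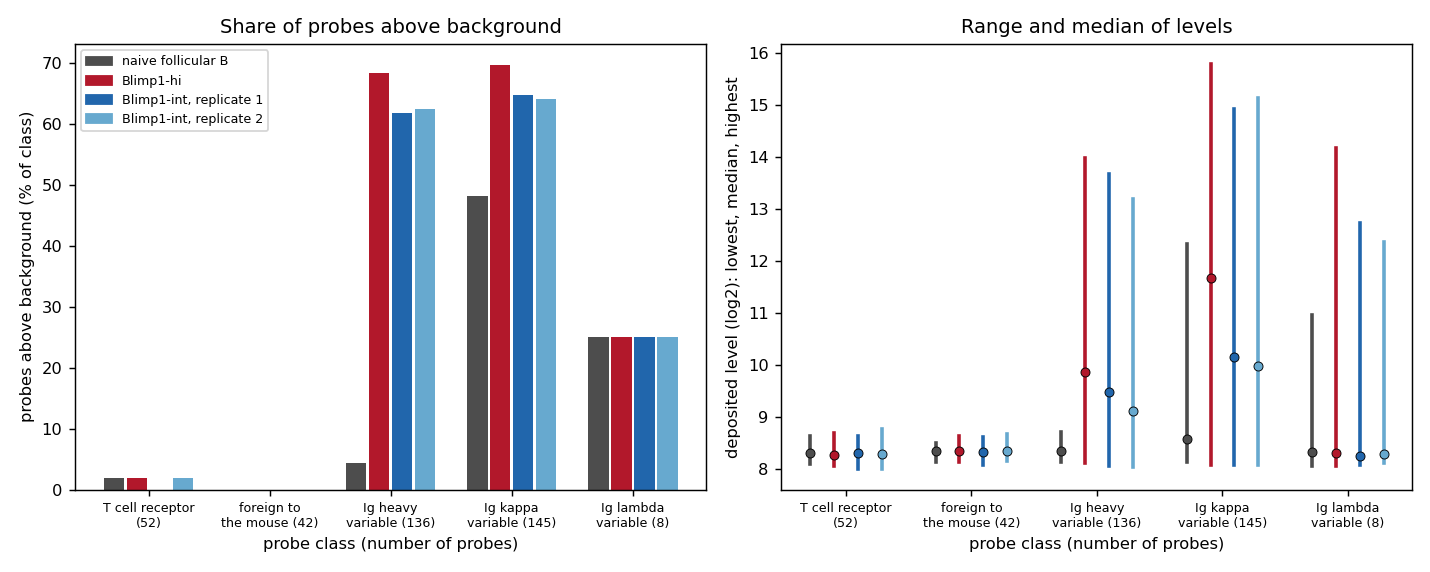
Left, share of probes above background on each array for the T cell receptor segments, the foreign probes and the immunoglobulin variable probes of each chain. Right, lowest, median and highest level (log2) of the same classes. The receptor segments have at most 1.92% above background, against 61.8% to 69.7% of the heavy and kappa probes and 25.0% of the lambda probes on the plasma cell arrays.

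A further 13 probes that carry no segment name were assigned to receptor loci through the NCBI gene number in their identifier. Of these 12 were below background on all 4 arrays, with levels from 7.98 to 8.59. The probe assigned to the alpha locus (Tcra) read 8.38, 8.36, 8.37 and 8.34 and that assigned to the beta locus (Tcrb) 8.19, 8.28, 8.25 and 8.31. Which part of its locus either probe targets is not given here. The exception was a second probe of the beta segment Trbv31, which read 9.18 on the naive array, 8.39 on Blimp1-hi, and 8.76 and 8.49 on Blimp1-int. It was above background in naive B cells and on the first Blimp1-int array. In naive B cells it was at least 1.44-fold higher than in Blimp1-hi, the bound for a group below background (limma adjusted p = 2.55e-10), and higher than in Blimp1-int by 0.55 on the log2 scale (SE 0.09, adjusted p = 1.6e-07), where 1 of 2 arrays was above background. The segment-named TRBV31 probe read 8.30, 8.26, 8.39 and 8.34 on the same arrays, so the probes of this segment disagree. Of 6 gamma segments with a second probe, both probes were shifted the same way from the naive array in 3 for Blimp1-hi and in 3 for Blimp1-int, and between the plasma cell populations the difference had the same sign in 5. For TRGV7 the second probe read 7.98 in naive B cells and 8.08, 8.11 and 8.09 in plasma cells, against the lower plasma cell levels of the segment-named probe given above.

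T cell markers other than the receptor were read on the same arrays. Of 46 genes on the marker list 17 have a probe with a gene name, and 1 was above background. That gene was Sh2d2a, an adaptor protein of T cell signalling, with 9.54 on the naive array, 9.07 on Blimp1-hi, and 8.80 and 8.69 on Blimp1-int. Against naive B cells its difference was -0.46 for Blimp1-hi (SE 0.10, limma adjusted p = 0.000104) and -0.79 for Blimp1-int (SE 0.08, adjusted p = 1.6e-13), short of the 2-fold threshold. Between the plasma cell populations it was 0.32 (SE 0.08, adjusted p = 0.00798). The other 16 lay between 8.03 and 8.58. They include the receptor's own signalling partners Cd3e (8.56, 8.39, 8.51 and 8.50) and Cd247, the zeta chain (8.31, 8.41, 8.43 and 8.44), the co-receptor chain Cd8b1 (8.26, 8.15, 8.19 and 8.03) and the pre-T-cell receptor chain Ptcra (8.19, 8.43, 8.34 and 8.55). The adaptor Trat1 and the transcription factors Bcl11b, Lef1, Gata3 and Foxp3 were below background on all arrays as well. None of the 17 was called in any comparison. Of all probes 2.52% were called in Blimp1-hi against naive, 2.44% in Blimp1-int against naive and 0.297% between the plasma cells. Of the probes below background on every array, 0.0% were called in each. limma's unadjusted p was under 0.05 for 6 in Blimp1-hi against naive, 2 in Blimp1-int against naive and 2 between the plasma cells, where it was so for 21.4%, 22.2% and 11.8% of all probes and 9.96%, 10.5% and 5.37% of those below background on every array. By adjusted p alone, the other genes that passed were Bcl11b in Blimp1-hi (difference -0.31, SE 0.10, adjusted p = 0.0195) and Ptcra in Blimp1-int (0.25, SE 0.09, adjusted p = 0.0328), both below background on all arrays. Cd3d, Cd3g, Cd4, Lck, Zap70 and the receptor's alpha and beta constant regions have no named probe and were not analysed here. Of the NK cell list 2 of 12 genes have a named probe, and both were below background.

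Markers of the sorted populations were read on the same arrays. Of 5 named genes on the B lineage list, the B cell genes Spib, an Ets transcription factor, and Cd72, an inhibitory receptor, were at 12.94 and 12.22 in naive B cells and between 8.43 and 8.65 in the plasma cells. Ebf1, a transcription factor of B cell identity, read 9.46 in naive B cells and 8.65, 8.37 and 8.52 in the plasma cells. The immunoglobulin genes of that list went otherwise: the Ighm probe named by gene number read 14.83 on the naive array and 16.01, 15.98 and 16.03 on those of the plasma cells, called higher in both, and Igkc lay between 15.98 and 16.03 on all 4, near the top of the scale. All 4 named plasma cell genes (Sdc1, Xbp1, Jchain, Bhlha15) were above background on every plasma cell array by the probe with the highest mean. A second probe each of Sdc1 and Bhlha15 was below background on all arrays. The eGFP probe read 8.29 on the naive array against 11.23, 10.55 and 10.82 on those of the plasma cells. Of the macrophage and granulocyte list, 4 of 6 named genes were below background, among them the defining markers Lyz2, Csf1r and Itgam. Apoe, an apolipoprotein abundant in macrophages, read 9.22, 9.91, 8.76 and 8.97. It was called higher in Blimp1-hi than Blimp1-int (difference 1.05, SE 0.09, limma adjusted p = 2.51e-18). Vcam1 exceeded background on the second Blimp1-int array alone (8.99).

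**Figure D5:**
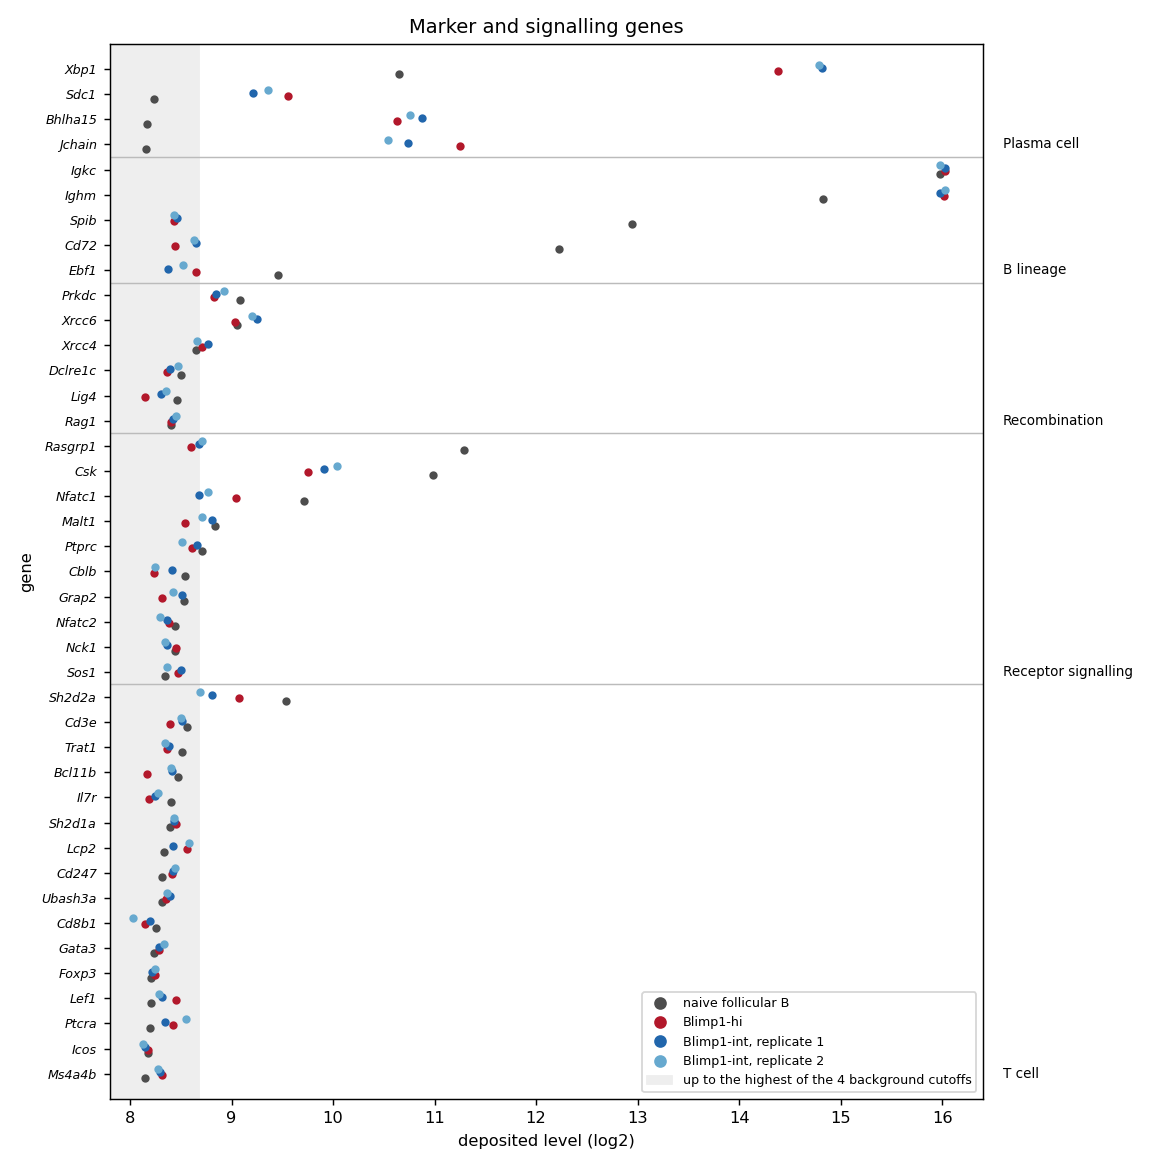
Deposited level (log2) on the 4 arrays of genes with a named probe on 5 lists, with the region up to the highest background cutoff (8.68) shaded. Of the T cell genes plotted, Sh2d2a lies above the shaded region, and of the B lineage genes Spib, Cd72 and Ebf1 are highest in naive B cells, Ighm is higher in the plasma cells and Igkc is near the top of the scale on all arrays. The plasma cell genes are highest in the plasma cells.

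The genes that carry the T cell receptor's signal inward were considered as a pathway, since B cells use several of them downstream of their own antigen receptor. Of 30 listed genes 15 have a named probe and 6 were above background on at least 1 array. Rasgrp1, which activates Ras after antigen receptor signalling, read 11.29 on the naive array, 8.60 on Blimp1-hi (below background), and 8.68 and 8.71 on Blimp1-int. It was at least 6.22-fold lower in Blimp1-hi (limma adjusted p = 3.53e-44) and fell by 2.59 on the log2 scale in Blimp1-int (SE 0.08, adjusted p = 5.86e-48). A second Rasgrp1 probe was below background on all arrays (8.55, 8.55, 8.57 and 8.56), so the probes of this gene disagree. Csk, the kinase that restrains Src family kinases at the receptor, read 10.98, 9.75, 9.91 and 10.03, and fell by 1.23 in Blimp1-hi and fell by 1.01 in Blimp1-int on the log2 scale (SE 0.10 and 0.08, adjusted p = 5.17e-20 and 9.96e-19). These were the 2 of 15 genes called, both lower in each plasma cell population, and none was called higher (of all probes, 2.52% and 2.44% were called in either direction). Between the plasma cell populations none was called, against 0.297% of all probes. There limma's unadjusted p was under 0.05 for 3 of the 15, against 11.8% of all probes. The transcription factor Nfatc1 (9.72, 9.05, 8.68 and 8.77) passed limma's adjusted p but not the 2-fold threshold. Its differences from naive B cells were -0.67 for Blimp1-hi and -0.99 for Blimp1-int. In Blimp1-hi against Blimp1-int it was the 1 gene of the 15 with an adjusted p under 0.05 (difference 0.32, SE 0.08, limma adjusted p = 0.0079). A second Nfatc1 probe was below background on all arrays (8.31, 8.50, 8.41 and 8.31). By adjusted p alone 6 of the 15 were lower in the Blimp1-hi and 4 in the Blimp1-int cells, where 13.1% and 14.2% of all probes had such a p in either direction. Of the 15 genes 9 were below background on every array, so no shift of the whole list was measured.

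Genes of the recombination machinery, which joins the segments of T cell and B cell receptors alike, showed no called difference in limma's fit, with an unadjusted p under 0.05 for 2 of 6 genes in each comparison, beside the shares of all probes given for the T cell markers. Of 10 listed genes 6 have a named probe. By adjusted p alone 1 passed, the ligase gene Lig4 in Blimp1-hi against naive B cells (difference -0.31, SE 0.10, adjusted p = 0.0173), which was below background on all arrays. Rag1, the recombinase subunit, read 8.40, 8.40, 8.42 and 8.45, below background on all arrays. The DNA repair genes Xrcc6 (9.06, 9.04, 9.25 and 9.20) and Prkdc (9.08, 8.83, 8.84 and 8.93) exceeded background on all arrays. Xrcc4 (8.65, 8.71, 8.77 and 8.66), close to the cutoffs, exceeded it on 3 arrays. A second Xrcc4 probe was below background on all arrays (8.36, 8.34, 8.35 and 8.25), so the probes of this gene disagree.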

How the data were processed

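The deposited log2 levels of the 4 arrays were used. The submitters' processing notes name lumi, without a version, as the software by which the authors made them. Whether this log2 scale is plain or variance-stabilized, the background step and the genome build are not given in the sources used here. The arrays hold nearly the same sorted values, as quantile normalization leaves them. Per the labels' protocols, Trizol extraction was followed by column clean-up with DNase, and the RNA was amplified to biotinylated cRNA. A deposited table of raw signals was not used, because the names of its 8 value columns match no sample.

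Levels were set against a cutoff per array, the mean plus 3 SD of 42 foreign probes. All 46120 probes were fitted with limma 3.58.1 in R 4.3.3, with a term for each of the 3 groups (two-sided, Benjamini-Hochberg over all probes, no filter, so that every segment was tested). The spread comes from the Blimp1-int pair (1 residual degree of freedom) and was moderated over probes (91.0 prior degrees of freedom, prior SD 0.0688). The number of arrays limits the precision. The steps were tested on simulated data.

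Segment names come from the identifiers. Other genes were named through the zero-padded NCBI gene numbers in 11897 identifiers, of which 9832 matched RefSeq (GRCm38.p6, for names and chromosomes only), giving 8127 genes. The match rate of numbers with 5 digits was 84.3%, and 50.9% once 7 was added to each. Where a gene had several probes, that with the highest mean was taken. Named are the segments above background on any array, those called, and the 3 with the largest difference in each direction in each comparison; segments given as family examples, TRBV26, TRBV7, and genes from the marker lists picked as examples were picked with their values in view. Some listed genes are counted but not reported by name here. The segments and marker lists were chosen with earlier results of these data known. Alternatives tried were other cutoffs, scalings, a filter, a prior that follows the level, and each Blimp1-int array left out.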

Additional observations from a re-analysis of the deposited data

How the results depend on the processing

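No segment was called in any of the 3 comparisons under 75th percentile scaling, cyclic loess, quantile normalization without the immunoglobulin probes, testing only probes above background on at least 1 array (2 segments remained to test), or a prior variance that follows the level. As the arrays hold nearly the same sorted values, 75th percentile scaling could hardly change a difference. For TRAV14D-2 in Blimp1-hi minus naive it gave -0.2533, against -0.2532 in the main setting. By adjusted p under 0.05 alone, 2 segments passed in Blimp1-hi against naive B cells, 4 in Blimp1-int against naive B cells and 0 between the plasma cell populations. With the prior that follows the level these numbers were 4 (TRAV14D-2 and TRGV7 added), 5 (TRAV12D-1 added) and 0. The share of all probes that passed under that prior is not given here, so the added segments are not read as a result about the segments. Leaving out either Blimp1-int array leaves no residual degrees of freedom, and the segments past 2-fold then numbered 0 to 0. The Blimp1-hi minus naive differences do not use the Blimp1-int arrays, so leaving either out could not change them. With a cutoff of the mean plus 2 SD, 6 segments instead of 2 were above background on at least 1 array, and with the highest foreign probe 3. The shares of all probes above these other cutoffs are not given here. Of the T cell marker genes 3 instead of 1 were above background with either of these cutoffs, an alternative chosen after seeing the data. Vector probes added to the foreign set, also chosen after seeing the data, left both counts at 2 and 1. Under cyclic loess the Blimp1-int minus naive differences of TRAV6-2 (-0.23) and TRBV8 (-0.22) no longer had an adjusted p under 0.05 in limma. Under that same setting all 18 named differences kept their direction, and the other 16 their side of the threshold. A cutoff on detection p-values was not run, since their columns match no sample. No paired analysis was possible because only the Blimp1-int group has more than 1 array. Signal over background limits these results: with 50 of 52 segments below background on every array, differences between populations were not measurable, and a low level of receptor transcripts was not detectable.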
